A study of Homo sapiens with 8 samples.

Results

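The genes described here are 10 targets of Wnt signalling and markers of intestinal stem cells: LGR5, ASCL2, AXIN2, EPHB2, EPHB3, MYC, CCND1, RNF43, ZNRF3 and TCF7. They were chosen by name, and all 10 had a value among the 30755 gene symbols of the RNA-seq table. The study measured them in ESO26, an established cell line described in the labels as an oesophageal adenocarcinoma line, grown in RPMI-1640 with serum. The knockdown group held 2 libraries of cells with small interfering RNA (siRNA) against HNF4A, labelled siHNF4A, and the control group held 2 libraries labelled only as control; the series speaks of triplicates, and these 2 per group were analysed here. The labels give neither the control siRNA nor the time after transfection, and do not say whether the 2 libraries of a group came from separate cultures, so the p-values measure the spread between these libraries, which may be technical. The other 4 of the 8 samples are ChIP-seq and chromosome conformation libraries and were not used here.

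In Wnt signalling, a secreted ligand binds a Frizzled receptor and an LRP co-receptor, which stops the destruction of beta-catenin and lets it act with TCF/LEF factors on target genes. Several targets feed back on the pathway: AXIN2 rebuilds the destruction complex, and the ubiquitin ligases RNF43 and ZNRF3 remove Frizzled from the cell surface. In the intestinal crypt this signal maintains stem cells, which are marked by LGR5 and ASCL2 and positioned by the receptors EPHB2 and EPHB3. HNF4A is a nuclear receptor of the gut and liver that is known for promoting differentiation of intestinal epithelium. The comparison asks how these genes stood when HNF4A was lowered.

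Normalized counts summed to between 17912507 and 18613685 per library. Genes listed at 0 numbered 5479 and 5640 in the control libraries against 4260 and 4362 after knockdown, and the part of this gap in the values of low genes was not tested. The absolute number of reads is unknown, so no counting intervals are given. HNF4A itself had 4129 and 3937 normalized counts in the controls and 1140 and 932 after siRNA, which left 25.7% of its control mean. All 5 epithelial markers checked (EPCAM, KRT8, KRT18, KRT19 and CDH1) were present, with summed values of 75840 to 78607 in the controls and 69099 to 69191 in the knockdown. EPCAM, KRT8 and KRT18 fell and KRT19 rose, the last not called without control replicate 1, siHNF4A replicate 1 or siHNF4A replicate 2 (adjusted p of 0.0521, 0.152 and 0.0814 in limma). Markers of other cell types were low. The summed values in the control and the knockdown libraries were 15.0 to 35.5 and 20.1 to 36.2 for squamous epithelium, 132 to 210.2 and 235 to 238 for fibroblasts, 15.2 to 24.6 and 47.2 to 64.0 for endothelium, and 54.6 to 58.6 and 31.9 to 67.3 for immune cells. TP63, LUM, PECAM1 and CD3E, defining markers of these types, had no value here. Within the squamous list KRT14 rose (adjusted p = 0.0185 in limma), from 0.637 and 2.29 to 12.2 and 25.7 normalized counts, passed the filter only through the knockdown, and was not called without siHNF4A replicate 1 (0.0616) or siHNF4A replicate 2 (0.21). KRT5, of the same list, had 32.6 and 12.1 in the control libraries against 6.14 and 10.5 after knockdown and did not pass the test (adjusted p = 0.19). The endothelial sum moved with VWF, which had 8.55 and 6.68 in the control libraries against 47.5 and 36.4 after knockdown and passed the filter only through the knockdown. The part of these shifts in the results below was not tested, and fewer cells of a type cannot be told apart from less RNA per cell in bulk samples.

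The promoters of EPHB2 and EPHB3 are shown because these 2 receptors of one family both rose, and that of RNF43 because it lies among the members that did not pass the test. They come from the RefSeq promoter table of build GRCh38.p14, reach from 250 bases before to 50 bases after the start of the gene, and are written 5′ to 3′ on the strand of the gene. Capitals mark the letters GGGCGG or CCGCCC (a GC box, bound by Sp1 and KLF factors) and CTTTG or CAAAG (a short core of the TCF/LEF motif). The RefSeq entries kept here cover 4 of the 10 genes, the fourth being TCF7. The promoters of the other genes are not described, and nothing is said about their motifs. EPHB2, RNF43 and TCF7 each have 2 entries, and the first of EPHB2 and of RNF43 is printed. The EPHB2 window is chr1:22710588-22710887 on the plus strand, the EPHB3 window is chr3:184561535-184561834 on the plus strand, and the RNF43 window is chr17:58417485-58417784 on the minus strand.
EPHB2: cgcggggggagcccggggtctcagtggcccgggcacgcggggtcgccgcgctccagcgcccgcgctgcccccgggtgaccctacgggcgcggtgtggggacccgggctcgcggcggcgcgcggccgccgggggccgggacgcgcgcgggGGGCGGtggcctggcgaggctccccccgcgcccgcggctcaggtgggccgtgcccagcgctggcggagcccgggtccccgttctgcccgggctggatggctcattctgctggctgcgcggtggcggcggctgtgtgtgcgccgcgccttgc
EPHB3: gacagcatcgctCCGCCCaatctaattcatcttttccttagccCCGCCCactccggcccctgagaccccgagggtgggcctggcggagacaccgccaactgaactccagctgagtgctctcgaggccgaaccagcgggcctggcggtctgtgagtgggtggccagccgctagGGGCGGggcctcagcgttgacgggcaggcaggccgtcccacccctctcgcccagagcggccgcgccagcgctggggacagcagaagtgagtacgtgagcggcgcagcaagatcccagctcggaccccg
RNF43: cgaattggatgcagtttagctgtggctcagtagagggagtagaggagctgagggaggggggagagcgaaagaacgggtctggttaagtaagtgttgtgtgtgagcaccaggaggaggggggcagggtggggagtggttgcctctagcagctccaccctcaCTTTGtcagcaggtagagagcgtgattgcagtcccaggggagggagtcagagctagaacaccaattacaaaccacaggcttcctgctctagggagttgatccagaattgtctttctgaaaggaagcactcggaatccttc
The EPHB2 window held 83% G and C with 49 CpG dinucleotides, and 99.2% of the 35116 promoter windows had a lower G and C content. EPHB3 had 69% G and C with 26 CpG, and the printed RNF43 window 54.3% with 5 CpG. The second RNF43 window, chr17:58402672-58402971, had 43.7% with 0 CpG. The GC box occurred 1 time in the EPHB2 window and 3 times in the EPHB3 window, and 45.0% of all windows held it on either strand. Each RNF43 window held the short TCF/LEF core 1 time, a match found in 47.5% of all windows, while neither Eph window held it. The first TCF7 window held that core 0 times and the second 2 times. The first had 69.7% G and C, 25 CpG and the GC box 1 time, and the second 61% with 3 CpG and no GC box. The longer core CTTTGA or its complement TCAAAG (12.9% of all windows) and the HNF4 sequence CAAAGTCCA or its complement TGGACTTTG (0.384% of all windows) occurred in no window of the 4 genes. The longer TCF/LEF core and the HNF4 sequence both contain the short core, so the capitals alone do not tell these motifs apart. These matches describe the letters of a short window and say nothing about binding.

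After HNF4A knockdown 6 of the 10 genes changed, in both directions. Calls were made with limma at an adjusted p under 0.05, over all 15577 genes whose mean reached 10 normalized counts. EPHB2, EPHB3 and ASCL2 rose, and CCND1, ZNRF3 and MYC fell. AXIN2, RNF43, LGR5 and TCF7 were not called. Thus 3 genes were called higher and 3 lower, where the background over all tested genes was 6.02% higher and 8.11% lower, 14.1% in all. The 10 genes were chosen with earlier results of these data known, so nothing is read from their share beside this background. The median log2 fold change of the 10 genes was -0.08, beside -0.01 over all tested genes. All 10 passed the filter, and each had a mean above 10 in both groups, so none passed only through the group where it was high. In 8 of the 10 genes the groups did not overlap, 3 with the knockdown higher and 5 with it lower. The same held for 57% of all tested genes, 26.9% with the knockdown higher and 30.1% with it lower.

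**Figure D1:**
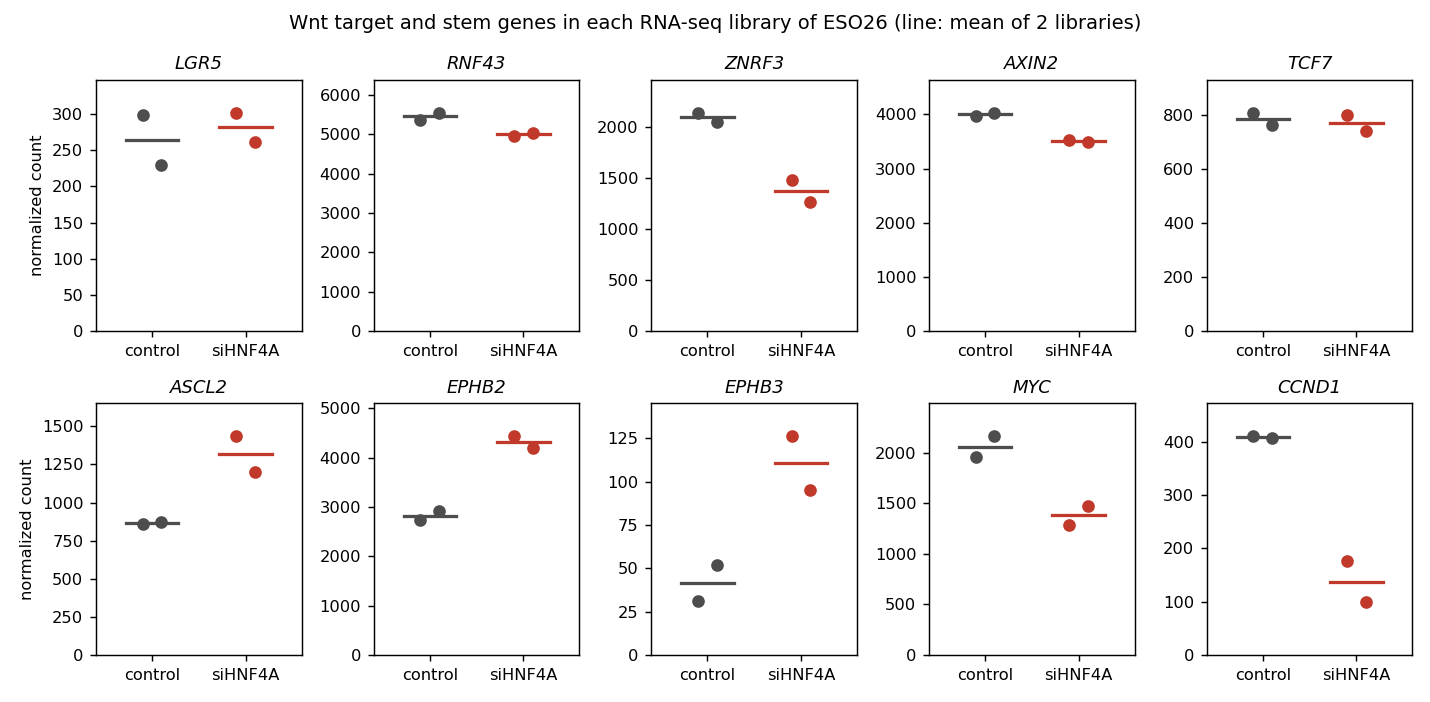
Normalized counts (y axis, linear and from 0, with its own scale for each gene) of the 10 genes in the 2 control and 2 siHNF4A libraries; points are libraries and lines are group means. The siHNF4A points lie above the controls for ASCL2, EPHB2 and EPHB3, below them for ZNRF3, MYC, CCND1, AXIN2 and RNF43, and among them for LGR5 and TCF7.

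For a single gene, permuting 2 against 2 libraries gives an exact two-sided p of 0.333 at the lowest, and the calls depend on limma borrowing variance information from other genes. Without the trend between variance and expression in that model, 0 of the 10 genes were called (6 had an unadjusted p under 0.05) and 0 of all genes (3524 had an unadjusted p under 0.05). Fold changes are on the scale of log2(normalized count + 1), which understates the change of low genes.

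EPHB2 and EPHB3 are receptor tyrosine kinases whose ephrin ligands sit on neighbouring cells, and both are targets of beta-catenin in the crypt. EPHB2 had 2732 and 2919 normalized counts in the control libraries against 4436 and 4207 after knockdown. Its means were 2826 ± 132 and 4321 ± 162 (SD, n = 2), and the groups stood far apart compared with the spread within them. EPHB2 rose by 0.61 on the log2 scale (SE 0.066). Its adjusted p in limma, 0.000531, was the smallest of the 10 genes.

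EPHB3 had 31.2 and 51.8 normalized counts in the control libraries against 126 and 95.1 after knockdown, so the lowest knockdown library was still above both controls. Its log2 fold change of 1.42 was the largest rise of the 10 genes, ranking 121 among the rises of all tested genes. Its control libraries were less alike than those of the other 9 genes, with a coefficient of variation of 35%. The 95% interval of the rise was 0.77 to 2.08, and limma gave an adjusted p of 0.0115. The rise was 1.22 and no longer called without siHNF4A replicate 1 (adjusted p = 0.0948 in limma), and lay between 1.07 and 1.78 without each library in turn. It was also not called when genes of low mean were kept in the test (adjusted p = 0.0822 in limma).

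The other receptors and the ephrins were compared next. Of 12 further Eph receptors 6 were tested, with 2 called higher, 1 lower and a median log2 fold change of 0.12 (all tested genes: 6.02% higher, 8.11% lower, median -0.01). As with the lists that follow, its genes were picked with earlier results of these data known, so these shares are a description only. EPHB4, a receptor best known from blood vessels, rose by 0.28 (adjusted p = 0.0167 in limma), from 2699 and 2583 to 3203 and 3231 normalized counts. EPHB1 had 300.2 and 299 in the control libraries against 406 and 360 after knockdown and was not called (adjusted p = 0.0922 in limma). EPHB6, which lacks kinase activity, lay at 12.2 to 18.9 in all 4 libraries. Among the EphA receptors, EPHA2 fell by 0.45 (adjusted p = 0.00282 in limma) and EPHA1 rose by 0.35 (adjusted p = 0.0389 in limma). Of the 8 ephrins 7 were tested, with 1 higher and 1 lower (14.1% of all tested genes were called in either direction). EFNB2 rose by 0.35 (adjusted p = 0.0375 in limma) and EFNB1 fell by 0.33 (adjusted p = 0.0459 in limma), both ligands of EphB receptors. EPHA2 was called without any 1 library. The calls of EPHB4, EFNB2, EFNB1 and EPHA1 were each lost without siHNF4A replicate 2 (0.0942, 0.212, 0.253 and 0.148) and without siHNF4A replicate 1 (0.0797, 0.0703, 0.0511 and 0.125). Without control replicate 2 EPHA1 (0.177) and EFNB1 (0.136) were also not called, and without control replicate 1 EFNB2 was not (0.0901). EFNB1 was also not called after quantile normalization (0.0767).

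ASCL2 is a transcription factor that maintains LGR5-positive stem cells. It had 858 and 875 normalized counts in the control libraries against 1435 and 1200 after knockdown, and the lowest knockdown library lay well above both controls. ASCL2 rose by 0.60 on the log2 scale, to 152% of its control mean (standard error 0.099, adjusted p = 0.00434 in limma). LGR5, the R-spondin receptor that marks crypt stem cells, had 299 and 230.3 in the control libraries against 302 and 261 after knockdown, and the groups overlapped. Its log2 fold change was 0.10 with a 95% interval of -0.26 to 0.46, and the adjusted p was 0.739 in limma. The interval leaves room for a change in either direction, and the sign turned when control replicate 2 was left out (-0.090) or siHNF4A replicate 1 (-0.0073). Both genes are stem cell markers, but whether their changes differed was not tested.

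R-spondins, the ligands of LGR receptors, were barely present where they had a value. RSPO1, RSPO2 and RSPO4 were listed at 0 in both controls and at 0 to 4.48 in the knockdown, under the filter. RSPO3 had no value here. LGR4, the broadly expressed relative of LGR5, had 6766, 6291, 6388 and 6754 normalized counts in control 1, control 2, siHNF4A 1 and siHNF4A 2. The groups overlapped, with a log2 fold change of 0.0097 and a 95% interval of -0.13 to 0.15, and its sign turned without control replicate 2 (-0.043) or siHNF4A replicate 2 (-0.031). LGR6 lay at 4.53 to 10.8 and was not tested.

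Other genes of intestinal stem and progenitor cells were listed beside them. Of 14 genes 12 were tested, with 3 higher (6.02% of all tested genes), 2 lower (8.11%) and a median log2 fold change of 0.07 (-0.01). Its members too were picked with earlier results known. OLFM4, a secreted glycoprotein of crypt base cells, fell by 0.85 (adjusted p = 0.000196 in limma), from 15901 and 14591 to 9125 and 7815 normalized counts. PROM1, the surface protein CD133, rose to 219% of its control mean (adjusted p = 0.0025 in limma), from 132 and 120.3 to 305 and 248. RGMB, a BMP co-receptor, rose by 0.61 and SLC12A2, a chloride cotransporter, by 0.54, with adjusted p of 0.000802 and 0.00187 in limma. PTPRO, a receptor phosphatase, fell by 0.28 (adjusted p = 0.0217 in limma), a call that was lost without siHNF4A replicate 2 (0.152). MSI1, BMI1, LRIG1, SOX9, CDCA7, SMOC2 and TNFRSF19 were not called. TNFRSF19 had 269 and 319 in the control libraries against 219.9 and 204 after knockdown (adjusted p = 0.0628 in limma).

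AXIN2, RNF43 and ZNRF3 are negative feedback genes of the pathway. ZNRF3 had 2143 and 2049 normalized counts in the control libraries against 1481 and 1268 after knockdown, so both knockdown libraries lay well below the controls. It fell by 0.61 on the log2 scale, to 65.6% of its control mean (standard error 0.088, adjusted p = 0.0021 in limma). RNF43, its closest relative, had 5360 and 5555 in the control libraries against 4967 and 5033 after knockdown. These groups did not overlap, but the log2 fold change was only -0.13, with a 95% interval of -0.25 to 0.0011 and an adjusted p of 0.176 in limma. Over the fits that kept all 4 libraries, the change of RNF43 ran from -0.126 to -0.067. The log2 ratio of ZNRF3 to RNF43 was -1.32 and -1.44 in the control libraries against -1.75 and -1.99 after knockdown, a difference of -0.49. Antisense genes overlap RNF43 (TSPOAP1-AS1) and ZNRF3 (ZNRF3-AS1) in the RefSeq annotation, and without a stated strand setting reads of such partners cannot be told apart. The table lists ZNRF3-AS1 at 2.45 to 6.30 normalized counts and TSPOAP1-AS1, under its older symbol BZRAP1-AS1, at 158 to 208.

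AXIN2, widely used as a readout of beta-catenin activity, had 3974 and 4035 normalized counts in the control libraries against 3524 and 3496 after knockdown. Replicates differed little, with coefficients of variation of 1.09% and 0.558%, and the groups did not overlap. Its log2 fold change of -0.19, with a 95% interval of -0.32 to -0.06, was not past the threshold (adjusted p = 0.0618 in limma). When only genes with a mean of at least 50 were tested, the same change was called (adjusted p = 0.0465), and over the alternatives tried for AXIN2 the adjusted p ran from that value to 0.264.

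TCF7 encodes TCF-1, a partner of beta-catenin that is itself a target. It had 808 and 761 normalized counts in the control libraries against 800.3 and 738 after knockdown, with overlapping groups. The log2 fold change was -0.03 with a 95% interval of -0.24 to 0.18 (adjusted p = 0.876 in limma), and its sign turned under quantile normalization (0.016) and without control replicate 1 (0.015) or siHNF4A replicate 2 (0.029). TCF7 overlaps VDAC1 in the RefSeq annotation, and VDAC1 had 5082 and 5244 normalized counts in the control libraries against 4019 and 3971 after knockdown. Whether the counting kept such reads apart is not given in the sources used here. LEF1, a TCF/LEF factor that is also a Wnt target, fell by 0.61 (adjusted p = 0.00162 in limma), from 1734 and 1913 to 1231 and 1159. The log2 ratio of LEF1 to TCF7 was 1.10 and 1.33 in the control libraries against 0.62 and 0.65 after knockdown. TCF7L2, the main TCF/LEF factor of normal intestine, had 412 and 465 in the control libraries against 471 and 549.9 after knockdown and was not called (adjusted p = 0.281 in limma).

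**Figure D2:**
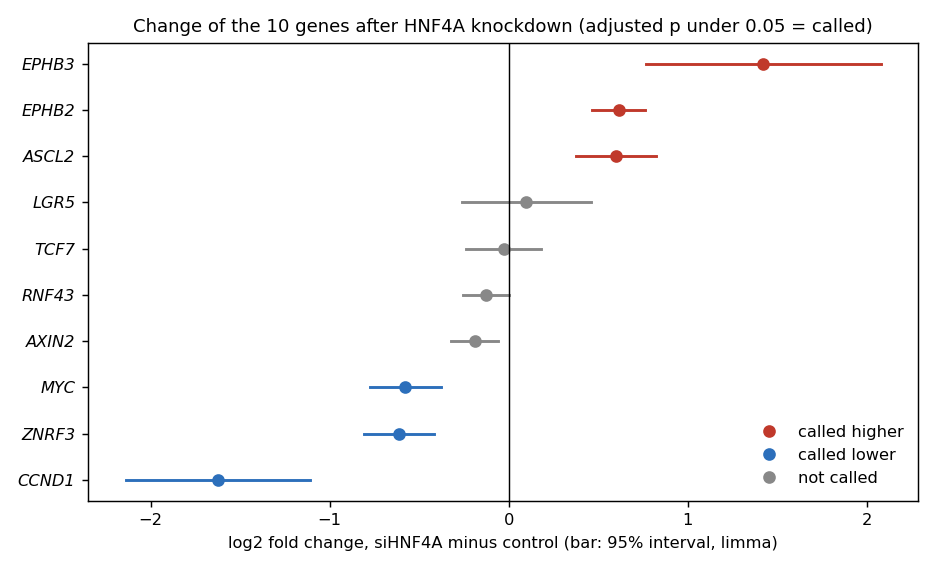
Log2 fold change of each of the 10 genes (x axis, siHNF4A minus control on the log2(normalized count + 1) scale) with its 95% interval from limma; colour shows whether the gene was called. EPHB3 and CCND1 lie farthest from 0 at 1.42 and -1.63 with wide intervals, and the intervals of LGR5, TCF7 and RNF43 cross 0.

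MYC, a transcription factor of cell growth, and CCND1, cyclin D1, which activates CDK4 and CDK6, are among the first described targets of beta-catenin. MYC had 1960 and 2164 normalized counts in the control libraries against 1290 and 1477 after knockdown, with a clear gap between the groups. It fell by 0.58 on the log2 scale, to 67.1% of its control mean (standard error 0.089, adjusted p = 0.00311 in limma).

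CCND1 had 410.4 and 408 normalized counts in the controls, which were nearly equal, while the knockdown libraries stood at 175 and 99.1. CCND1 fell by 1.63 on the log2 scale, to 33.6% of its control mean (SE 0.23, adjusted p = 0.00192 in limma). The fall ranked 37 among those of all tested genes, and HNF4A itself ranked 13. Its knockdown libraries were less alike than those of the other 9 genes, with a coefficient of variation of 39.3%. The fall was 2.03 without siHNF4A replicate 1 and 1.22 without siHNF4A replicate 2, and it was called in both fits.

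The relatives and partners of both genes were examined. CCND2, cyclin D2, fell by 0.67 (adjusted p = 0.000196 in limma), from 9988 and 9741 to 6473 and 5931 normalized counts. CCND3 had 1072 and 1070 in the control libraries against 1012 and 1003 after knockdown and was not called (adjusted p = 0.524 in limma). Of 8 partners of the D cyclins, all tested, 2 were called higher and 1 lower, beside 6.02% and 8.11% of all tested genes. CDK4 fell by 0.33 (adjusted p = 0.0173 in limma), CDK6 rose by 0.36 (0.00755), and CDKN2C, an inhibitor of both kinases, rose by 0.59 (0.0238). The call of CDK4 was lost without siHNF4A replicate 1 (0.121) and that of CDK6 without siHNF4A replicate 2 (0.0531). CDKN2C was not called without control replicate 2, siHNF4A replicate 1 or siHNF4A replicate 2 (0.0728, 0.0717 and 0.141).

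MYCL, a relative of MYC, rose by 1.67 (adjusted p = 0.000131 in limma), from 155 and 141 to 492 and 453 normalized counts, and it was called without any 1 library. MYCN lay under the filter, at 12.2 and 6.67 in the control libraries against 2.70 and 3.04 after knockdown. Of 11 MYC partners and antagonists 10 were tested, with 2 higher, MYCL among them, 1 lower and a median log2 fold change of 0.02 (6.02%, 8.11% and -0.01 over all tested genes). MXD4, an antagonist of MYC, rose by 0.42 (adjusted p = 0.0224 in limma) and MLX fell by 0.38 (0.0271). MXD4 was not called without control replicate 2, siHNF4A replicate 1 or siHNF4A replicate 2 (0.0566, 0.073 and 0.127), and MLX not without siHNF4A replicate 2 (0.177). MAX, the partner of MYC on DNA, was not called and had overlapping groups.

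Genes next to CCND1 on chromosome 11 were listed to see whether the neighbourhood moved with it. Of 8 neighbours with a value 5 were tested and 1 was called, in a background of 14.1%: CTTN, cortactin, rose by 0.40 (adjusted p = 0.00309 in limma). FADD, PPFIA1, FGF19 and LTO1 (under its older symbol ORAOV1) were not called, with log2 fold changes between -0.16 and 0.06, so no tested neighbour was called lower. ANO1, a chloride channel gene under the filter and not tested, had 11.7 and 11.5 in the control libraries against 6.51 and 4.91 after knockdown, and these groups did not overlap.

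For 5 pairs of relatives, chosen after the values were seen, the change of the log2 ratio between the genes was computed in each library. Gene length cancels in such a change. The ratio of CCND1 to CCND2 moved by -0.96, MYC to MYCL by -2.24, LEF1 to TCF7 by -0.58, ZNRF3 to RNF43 by -0.49 and EPHB3 to EPHB2 by 0.81. Since each pair was picked for its values, these changes are a description with no test.

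**Figure D3:**
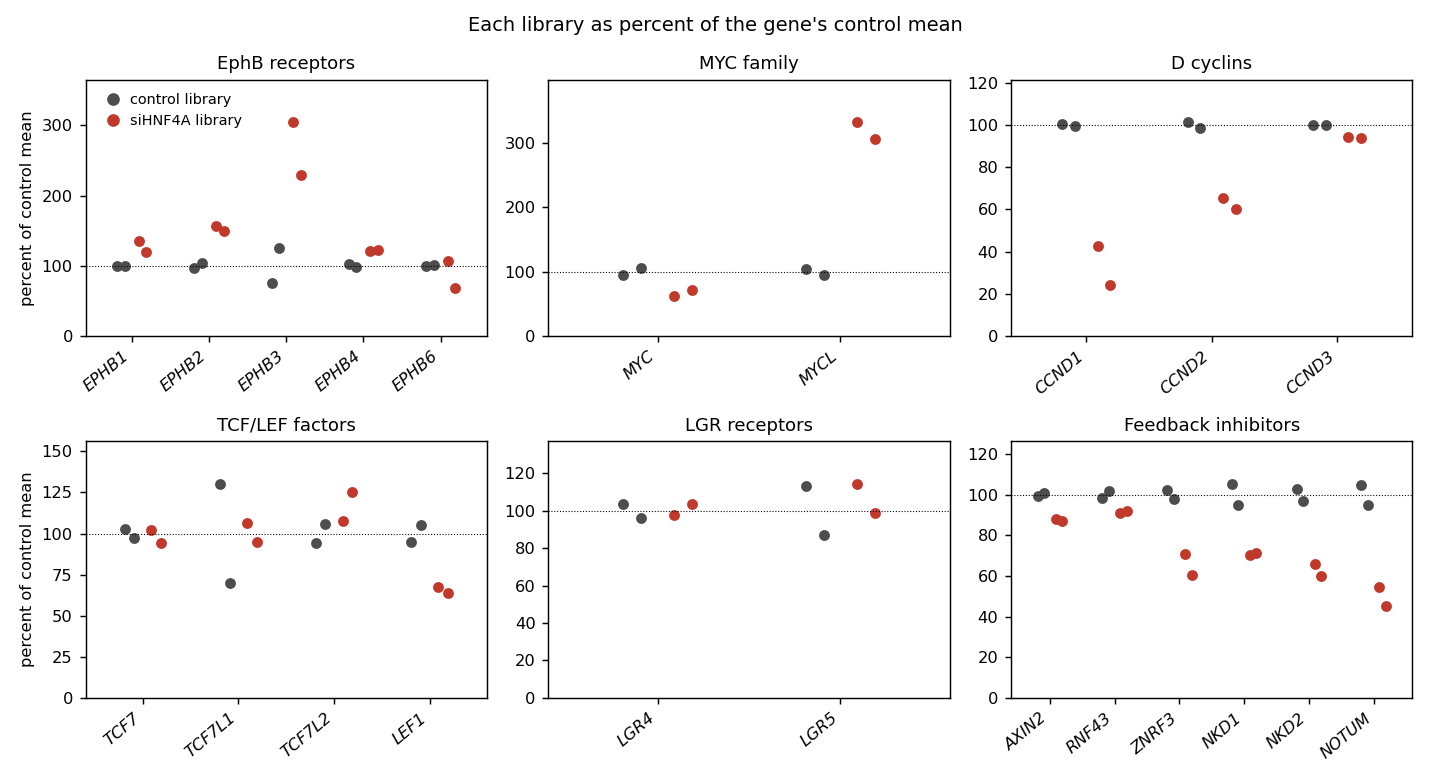
Each library as percent of the control mean of that gene (y axis, linear and from 0) for the 10 genes other than ASCL2, beside relatives and other feedback genes; grey points are control and red points siHNF4A libraries, and the dotted line marks 100%. CCND1, CCND2 and LEF1 lie under their controls, MYCL and EPHB3 above them, and LGR5 and TCF7 among them.

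Of 15 further Wnt targets 13 were tested, with 3 called higher, 4 lower and a median log2 fold change of -0.305. Over all tested genes 6.02% were called higher and 8.11% lower, and the median was -0.01. NOTUM, a secreted enzyme that inactivates Wnt ligands, fell by 1.01 (adjusted p = 0.00219 in limma), from 403 and 364 to 209 and 173 normalized counts. NKD2 and NKD1, inhibitors that act on Dishevelled, fell by 0.66 (adjusted p = 0.0148) and 0.50 (0.0335). SP5 and APCDD1 had log2 fold changes of -0.305 and -0.35 with adjusted p of 0.141 and 0.107, and their knockdown libraries lay below the controls. PROX1 rose by 1.37 (adjusted p = 0.0104 in limma), from 29.4 and 37.5 to 75.7 and 100.4. CD44, a cell surface receptor for hyaluronan, rose by 0.50 (0.0176), and JUN rose by 0.40 (0.00162). NKD1 was not called without control replicate 1, siHNF4A replicate 1 or siHNF4A replicate 2 (0.112, 0.125 and 0.114). Without siHNF4A replicate 2 the calls of NKD2 (0.0854), PROX1 (0.105) and CD44 (0.12) were also lost.

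Components upstream of the targets were counted in the same way. Among 11 tested Wnt ligands and secretion genes, WLS, which carries Wnt proteins to the cell surface, fell by 0.35 (adjusted p = 0.0195 in limma), and no ligand was called (background 14.1% in either direction). WNT5B, WNT10A and WNT11 had log2 fold changes of 0.22 to 0.30 and adjusted p of 0.122 to 0.219 in limma. WNT3 lay the other way, at 182 and 171 in the control libraries against 126 and 149.8 after knockdown, and did not pass the test (-0.36 on the log2 scale, adjusted p = 0.199). Of 13 tested receptors 1 was called higher and 2 lower, against 6.02% and 8.11% of all tested genes. LRP6 rose by 0.48 (0.00407), while its relative LRP5 fell by 0.32 (0.0144) and FZD6 fell by 0.34 (0.00918). LRP6 went from 1678 and 1818 to 2321 and 2553 normalized counts, and LRP5 from 4696 and 4658 to 3972 and 3526. KREMEN1, a receptor of DKK inhibitors, fell by 0.42 (0.014). DKK1, DKK3, DKK4 and 4 SFRP-type inhibitors were under the filter. Without siHNF4A replicate 2 the calls of WLS (0.0539), LRP5 (0.119), FZD6 (0.0661) and KREMEN1 (0.0979) were lost, and that of WLS also without siHNF4A replicate 1 (0.117).

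CTNNB1, which encodes beta-catenin, had 5047 and 4994 normalized counts in the control libraries against 5260 and 5058 after knockdown. Its log2 fold change was 0.04 with a 95% interval of -0.09 to 0.17 (adjusted p = 0.705 in limma). Of 15 genes of the destruction complex and its relay 1 was called higher and 3 lower, with a median of -0.07 on the log2 scale, beside 6.02% and 8.11% of all tested genes and a median of -0.01. GSK3B, the kinase that marks beta-catenin for destruction, rose by 0.29 (adjusted p = 0.0245 in limma). AMER1, a scaffold that binds APC, fell by 0.50 (0.0084), BTRC, the ubiquitin ligase subunit that recognises beta-catenin, by 0.58 (0.0169) and DVL1 by 0.32 (0.0427). APC and AXIN1 had overlapping groups and were not called. Without siHNF4A replicate 1 the calls of AMER1 (0.0503) and BTRC (0.106) were lost. Without siHNF4A replicate 2 those of GSK3B (0.18) and DVL1 (0.262) were lost, and DVL1 was also not called without control replicate 2 (0.0942) or after quantile normalization (0.0725).

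Of 13 nuclear partners of beta-catenin 2 were called higher and 2 lower, and the median log2 fold change was 0.07, where all tested genes gave 6.02%, 8.11% and -0.01. The Pygopus proteins link beta-catenin to chromatin. PYGO1 fell by 1.03 (adjusted p = 0.00904 in limma), from 148 and 133 to 72.2 and 64.7 normalized counts, and PYGO2 rose by 0.43 (0.00862), from 1078 and 1183 to 1553 and 1485. BCL9, which joins Pygopus to beta-catenin, rose by 0.31 (0.0401). The call of PYGO1 was lost without siHNF4A replicate 2 (0.0542), that of PYGO2 without siHNF4A replicate 1 (0.0596) and that of BCL9 without control replicate 1, siHNF4A replicate 1 or siHNF4A replicate 2 (0.146, 0.193 and 0.0954). LEF1 was called in each of these 4 fits.

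**Figure D4:**
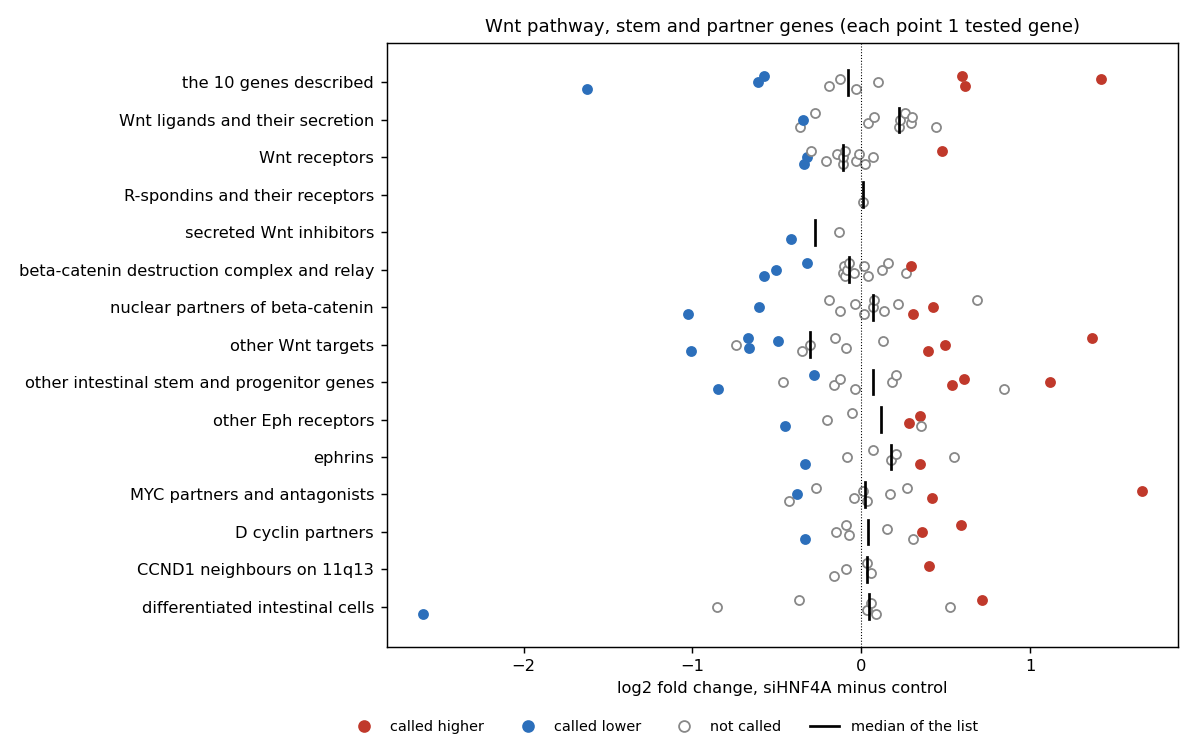
Log2 fold change (x axis, siHNF4A minus control) of each tested gene in the 10 genes described and the 14 lists around them; filled points were called, open points were not, and the black line is the median of the list. Called genes lie on both sides of 0 in most lists, and the medians lie between -0.305 and 0.22.

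Over the 14 lists together 124 genes were tested and 39 called, 19 higher and 20 lower, which is 31.5% beside 14.1% of all tested genes. The lists were drawn up in the same way as the 10 genes, so nothing is read from that share. Without siHNF4A replicate 2 the lists held 16 called genes in place of 39, and 1013 of all genes were called in place of 2202. Without siHNF4A replicate 1 the numbers were 26 and 1101. CCND2, CTTN, EPHA2, JUN, LEF1, LRP6, MYCL, NOTUM, OLFM4, PROM1, RGMB and SLC12A2 were called in each of the 4 fits that left out 1 library. Among the 10 genes, ASCL2, EPHB2, MYC, CCND1 and ZNRF3 were called in these 4 fits.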

How the data were processed

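The RNA-seq table holds normalized counts, a signal value per gene symbol that the authors deposited for 2 control and 2 siHNF4A libraries. RNA was extracted with the RNeasy Mini kit, per the labels' protocols. The submitters' processing notes name the build hg19 and Bowtie, Bowtie2, Trim Galore, Picard and MACS2 without roles. The counting program, annotation, strand setting and normalization are not given in the sources used here. The values are fractional and absolute depth is unknown. No transcript lengths were used, so values of different genes do not compare their levels. Ratios between genes are read only for their change, and low means a low normalized count.

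Libraries were grouped by title. A linear model of log2(normalized count + 1) was fitted in limma 3.58.1 (R 4.3.3, eBayes with an intensity trend, no block) to all genes whose mean reached 10, and p-values were adjusted by Benjamini-Hochberg over all tested genes. The fit was also run on simulated data, with variances drawn from genes of like mean. Such data hold the variance trend by construction, so that run does not test this choice. Named genes are the 10 members, HNF4A, and up to 6 called genes of each list with the smallest adjusted p (where none was called, the 2 with the highest mean). NKD1 and the uncalled genes of the lists that are named were chosen after their values were seen. The members and lists were chosen with earlier results of these data known. Same-numbered libraries did not deviate together (Pearson r of -0.019 over 15577 genes), so they were not taken as pairs. Of 177 list symbols 164 had a value, 1 through an older symbol. Alternatives covered pseudocount, filter, scaling, variance model, block and leaving out each library. Peak lists were not used, as the genes were not placed on hg19. Promoters are from RefSeq, GRCh38.p14.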

Additional observations from a re-analysis of the deposited data

How the results depend on the processing

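Of 130 values of the 10 genes under the alternatives, 116 kept their direction and side of the threshold. Without the variance trend all calls were lost: 0 of the 10 genes, 0 list genes and 0 of all genes, while for HNF4A (log2 fold change -1.97) limma gave 0.0919 as the adjusted p. The unadjusted p was under 0.05 for 6 of the 10 genes, 46 list genes and 3524 of all genes. The cause was not tested. With genes above 0 in at least 1 library, which tests 30247 genes, 726 genes and 15 list genes were called, and EPHB3 was not (adjusted p = 0.0822 in limma). With 1 library left out, between 1013 and 2449 genes, between 16 and 38 list genes and 5 or 6 of the 10 genes were called. Of the uncalled genes, only LGR4 and the 4 among the 10 were followed under the alternatives, and the sign turned for LGR5, LGR4 and TCF7. With 1 library left out LGR5 ran from -0.090 (without control replicate 2; -0.0073 without siHNF4A replicate 1) to 0.285, and LGR4 from -0.043 (without control replicate 2; -0.031 without siHNF4A replicate 2) to 0.062. TCF7 ran from -0.087 to 0.029 (without siHNF4A replicate 2; 0.015 without control replicate 1) and stood at 0.016 after quantile normalization. With the replicate number as a block 2428 genes, 39 list genes and 6 of the 10 genes were called. The block changed no call among the 10 genes.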

Other observations

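Genes of differentiated intestinal cells were looked at beside the stem cell genes. Of 16 with a value 8 were tested, with 1 called higher and 1 lower (6.02% and 8.11% of all tested genes). ALPI, the intestinal alkaline phosphatase of the brush border, fell by 2.60 on the log2 scale (adjusted p = 0.0167 in limma), from 23.4 and 15.1 normalized counts in the controls to 2.62 and 1.97 in the knockdown. It passed the filter only through the controls, and its call was lost without control replicate 1 (0.0663) and without siHNF4A replicate 2 (0.0661). SI, the sucrase-isomaltase of the same membrane, rose by 0.72 (adjusted p = 0.0384 in limma), from 77.0 and 73.4 to 120.1 and 129. Its call was lost without control replicate 2 (0.0804), siHNF4A replicate 1 (0.13) or siHNF4A replicate 2 (0.194), and after quantile normalization (0.057). VIL1 and KRT20, both markers of enterocytes, had overlapping groups and were not called. LYZ, the lysozyme of Paneth cells, had 78.7 and 59.2 in the control libraries against 47.3 and 29.2 after knockdown and did not pass the test (adjusted p = 0.0994 in limma). The goblet cell mucin MUC2 was listed at 0 in both controls and at 0.897 and 0 in the knockdown.

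ZCCHC12, a Wnt target under the filter, had 13.4 and 14.4 normalized counts in the control libraries against 1.8 and 0 after knockdown. TERT, the telomerase subunit, had 2.21 and 1.23 in the control libraries against 26.7 and 4.25 after knockdown, so 1 library stood apart. Neither gene was tested.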
